A study of Bos indicus with 55 samples.

Results

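The miRNAs described here are bta-miR-320a, bta-miR-320b and bta-miR-484, chosen by name as miRNAs whose hairpins are made without the Microprocessor. They are 3 of the 1024 bovine miRNA entries counted in extracellular vesicles (EVs, membrane particles that cells release) from cattle conceptuses. Of the 1024 entries, 655 had at least 1 read and 240 had enough reads to be tested, among them miR-320a and miR-484. The third, miR-320b, did not pass the filter on low counts.

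Most miRNAs are cut out of a long primary transcript by the Microprocessor, a complex of the nuclease DROSHA and its partner DGCR8, are carried from the nucleus by Exportin-5 and are trimmed by DICER. In mouse cells, the hairpins of miR-320 and miR-484 were described as direct products of transcription: they carry a 7-methylguanosine cap, leave the nucleus through Exportin-1 and need DICER but not the Microprocessor. The route was not examined in these data.

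A conceptus is the embryo with its membranes, and each one released its EVs during 6 h of culture on day 16 of pregnancy. Small RNA was sequenced from the EVs of 12 conceptuses made by nuclear transfer (7 male, 5 female), 10 made by in vitro fertilisation, IVF (3 male, 7 female), and 6 conceived in vivo after artificial insemination (3 male, 3 female). The labels name Bos indicus as the organism of every sample, while the design text gives the conceptuses as Bos taurus taurus, and neither names the cells that donated nuclei. The comparisons address whether the way a conceptus was made goes with a different miRNA content of its EVs.

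Libraries held between 39263 and 603579 counts, and the largest, nuclear transfer female 3, was followed by in vivo male 3 with 400928. A variable share of the counts, 4.11% to 76.3%, fell on miR-2887 and miR-2904, entries widely regarded as ribosomal RNA fragments, an origin not checked here. That share was 5.17% to 59.4% in nuclear transfer libraries, 8.80% to 76.3% in IVF libraries and 4.11% to 37.1% in in vivo libraries. As a check of the labelled origin, all 6 early embryo miRNAs (miR-302a to miR-302d, miR-367 and miR-371) were detected, but miR-367 in 1 IVF library alone (6.71 CPM, the count scaled by TMM and by library size) and at 0 in the other 27. All 7 blood cell, 3 muscle and 1 liver miRNAs listed as a check on other sources were detected as well. Mean levels over the 28 libraries were 3196 CPM for miR-122 (liver). For the muscle miRNAs they were 1406 CPM for miR-1, 281 CPM for miR-206 and 116 CPM for miR-133a. The early embryo means ran from 0.24 CPM (miR-367) to 1025 CPM (miR-302b). Since 655 of the 1024 entries had a read, detection alone does not settle the origin. Fewer vesicles and less miRNA per vesicle cannot be told apart in such libraries.

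The 3 members differed widely in abundance. Over all libraries, miR-320a had 12949 reads, which was 322 per 100000 counts (exact Poisson interval at 95%, 316 to 327). Of these reads, 4448 came from nuclear transfer female 3 and 2658 from in vivo male 3. miR-484 had 305 reads, or 7.58 per 100000 counts (6.75 to 8.48). miR-320b had 1 read, in in vivo female 3, and 0 in the other 27 libraries. A count of 0 allows up to 0.155 per 100000 counts of miR-320b in the pooled nuclear transfer libraries and 0.222 in the pooled IVF libraries, taking 3 counts as the limit. These intervals and limits cover counting error alone. Within a library, miR-320a ranked between 24th and 83rd by count and miR-484 between 113th and 258th.

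miR-320a was detected in all 28 libraries, with 50 to 4448 reads. Its level, in CPM, had a lowest value of 524, a median of 2408 and a highest value of 8340.3 in nuclear transfer EVs. In IVF EVs the lowest, median and highest levels were 649, 1221 and 2568 CPM. The 6 in vivo libraries had 2642, 2706, 3090, 3967, 4078 and 7336 CPM. Every IVF library therefore lay below every in vivo library, while nuclear transfer libraries spanned both ranges.

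**Figure D1:**
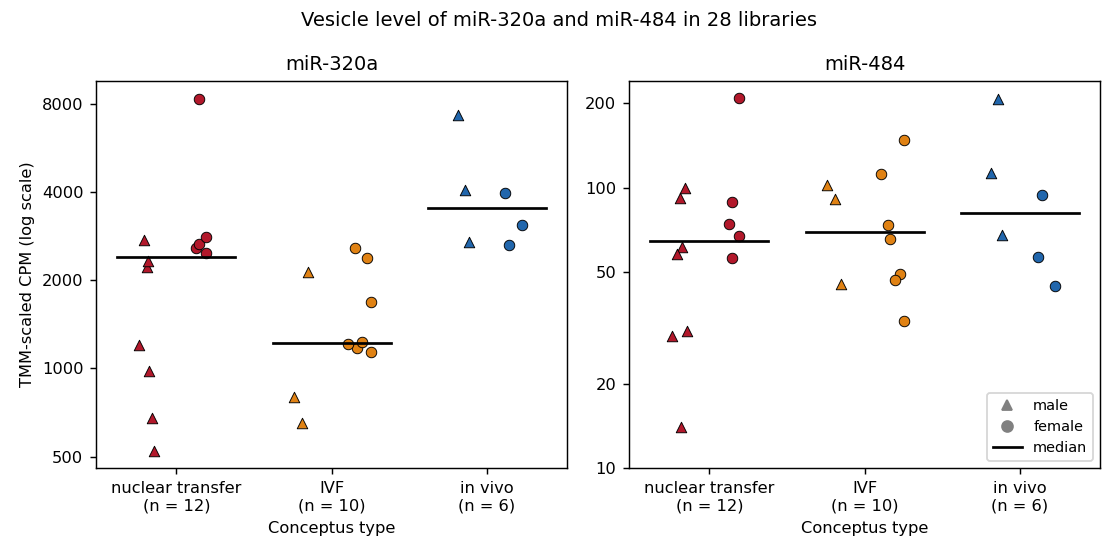
TMM-scaled CPM on a log axis for each of 28 EV libraries, by conceptus type, with triangles for male and circles for female conceptuses and a bar at each median. For miR-320a the highest IVF library (2568 CPM) lies just below the lowest in vivo library (2642 CPM), while the miR-484 values of the 3 types overlap.

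Between IVF and in vivo EVs the fitted log2 difference of miR-320a was -1.48 (SE 0.42; 95% interval -2.35 to -0.62), or 0.358 times the in vivo level. The unadjusted p was 0.0015, the second lowest among 240 miRNAs, and the adjusted p was 0.140 (edgeR quasi-likelihood test, Benjamini-Hochberg over 240), so miR-320a was not called. No miRNA was called in this comparison by edgeR (0 of 240, 0%), although 39 had an unadjusted p under 0.05. DESeq2 called 10 of 652 miRNAs given a p-value (its adjustment left out some with low counts) and limma voom called 22 of 240. Both called miR-320a, with log2 differences of -1.35 (adjusted p = 0.0351, DESeq2) and -1.65 (adjusted p = 0.0115, limma voom). Without IVF male 3, the IVF male with the highest miR-320a, edgeR also called it (-1.89, adjusted p = 0.0267). That fit called 21 miRNAs.

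The separation of the IVF and in vivo values held for miR-320a alone among the 240 miRNAs tested, which is 0.417% of them; this count was made after the values were seen. The same was found with counts divided by the library total alone, on the CPM scale, where the highest IVF value was 3430.3 and the lowest in vivo value 3615. It was also found when miR-2887 and miR-2904 were left out of the totals. With DESeq2-style size factors the miR-320a groups overlapped, and 0 of 240 miRNAs separated. The gap was narrow where it was found, and the share of counts in miR-2887 and miR-2904 was on average higher in IVF (45.3%) than in in vivo libraries (22.6%). The early embryo miRNAs summed to 15.1 to 12460.0 CPM in IVF EVs, against 102 to 1881 CPM in in vivo EVs, and their part in the miR-320a difference was not tested.

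The IVF difference had the same direction in both sexes. It was -1.98 (95% interval -3.34 to -0.62) between male IVF and male in vivo EVs and -0.99 (-2.06 to 0.08) between the female groups, and neither passed the adjusted threshold (edgeR, adjusted p = 0.265 and 0.761). Male IVF EVs had 649, 798 and 2142 CPM, against 2706, 4078 and 7336 CPM in male in vivo EVs. Female IVF EVs had 1142 to 2568 CPM with a median of 1234, against 2642, 3090 and 3967 CPM in female in vivo EVs.

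The median miR-320a level of nuclear transfer EVs lay between those of the other 2 types. Their log2 difference from in vivo was -0.70 (SE 0.39; 95% interval -1.49 to 0.09; edgeR adjusted p = 0.417), in a comparison with 1 of 240 miRNAs called (0.417%). Their difference from IVF was 0.78 (SE 0.37; 0.03 to 1.53; edgeR adjusted p = 0.428), with 3 of 240 called (1.25%). The mean difference from in vivo joins unlike values in the sexes: -1.63 (-2.68 to -0.57; edgeR adjusted p = 0.0721) between the male groups and 0.22 (-0.96 to 1.41; edgeR adjusted p = 0.926) between the female groups. From IVF, nuclear transfer EVs differed by 0.35 (-0.78 to 1.48) in males and 1.21 (0.28 to 2.15) in females, with edgeR adjusted p of 0.9997 and 0.236. Both means over the sexes depended on nuclear transfer female 3. Without that library the differences were -1.18 from in vivo and 0.46 from IVF, still not called. The differences within females were not refitted without it. The other female nuclear transfer libraries had 2484, 2571, 2662 and 2807 CPM, against 2642, 3090 and 3967 CPM in female in vivo EVs. The female medians, 2662 CPM in nuclear transfer and 3090 CPM in in vivo EVs, thus lay in the other direction from the fitted 0.22. In a joint test over the types on 2 degrees of freedom, miR-320a had F = 6.21 (edgeR adjusted p = 0.161). No miRNA was called in that test (0 of 240, 0%), where 38 had an unadjusted p under 0.05. Limma voom called 8 of 240, miR-320a among them (adjusted p = 0.0422).

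**Figure D2:**
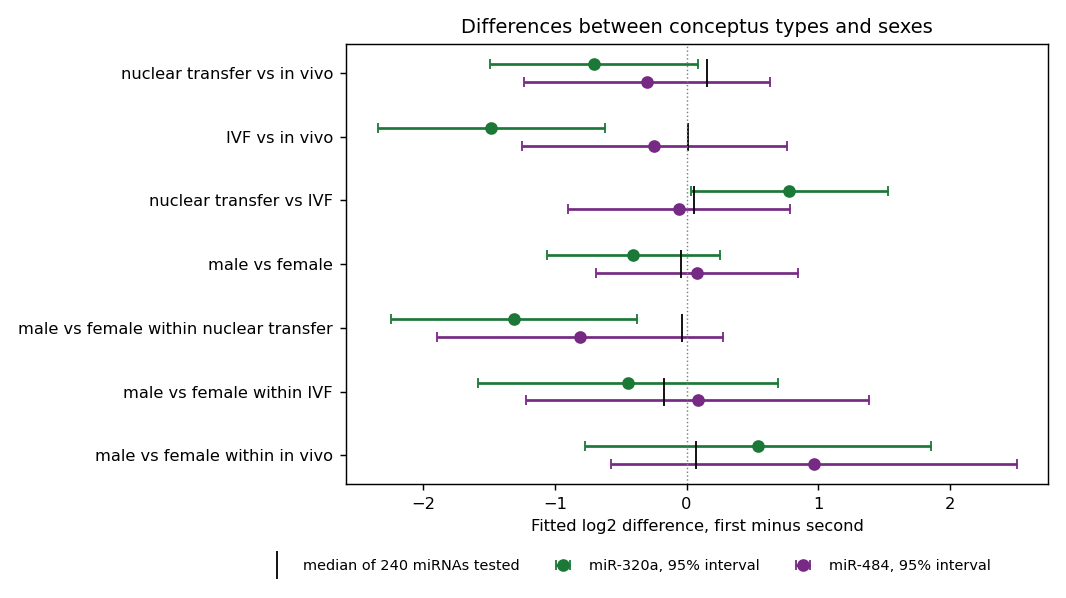
Fitted log2 differences of miR-320a and miR-484 with 95% intervals from the edgeR fit, the first-named group minus the second, with a black tick at the median of the 240 miRNAs tested. The miR-320a intervals for IVF against in vivo (-2.35 to -0.62) and for males against females within nuclear transfer (-2.24 to -0.37) lie below 0, before adjustment, and every miR-484 interval includes 0.

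The difference of miR-320a between the sexes was examined within each type. Male and female nuclear transfer conceptuses come from different donor cells, so within that type sex and donor cannot be told apart. Male nuclear transfer EVs had 524 to 2752 CPM with a median of 1201, against 2484, 2571, 2662, 2807 and 8340.3 CPM in female nuclear transfer EVs. The ranges overlap through 1 male, nuclear transfer male 7. The log2 difference of males from females was -1.31 (SE 0.46; 95% interval -2.24 to -0.37; edgeR adjusted p = 0.0585), in a comparison where 20 of 240 miRNAs were called (8.33%). It passed with limma voom (-1.35, adjusted p = 0.0134), which called 46 of 240. It did not pass with DESeq2 (-0.93, adjusted p = 0.127), which called 56 of the 652 given a p-value. The edgeR difference was -0.76 without nuclear transfer female 3.

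In the male nuclear transfer libraries, miR-2887 and miR-2904 took 46.6% ± 10.2 of the counts (SD, n = 7), against 24.6% ± 16.2 in the female ones (n = 5). The early embryo miRNAs summed to 423 to 7784 CPM in the males, against 141 to 1088 CPM in the females. With the miR-2887 and miR-2904 share as a covariate, the miR-320a difference between males and females was -0.69 (edgeR adjusted p = 0.470). The part of the early embryo miRNAs in it was not tested.

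Male minus female differences of miR-320a were -0.45 (95% interval -1.59 to 0.69) in IVF EVs and 0.54 (-0.77 to 1.86) in in vivo EVs, and -0.40 (-1.06 to 0.25; edgeR adjusted p = 0.743) as the mean over types. The dependence of the type differences on sex was not called (F = 2.80, edgeR adjusted p = 0.371). No miRNA was called for sex over all types (0 of 240, 0%; 9 with an unadjusted p under 0.05; 0 by DESeq2 and limma voom) or for the interaction (0 of 240, 0%; 35 with an unadjusted p under 0.05; 0 by limma voom).

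miR-484 was also detected in all 28 libraries, but with 1 to 41 reads. Its lowest, median and highest levels were 14.1, 64.4 and 209.6 CPM in nuclear transfer EVs. In IVF EVs they were 33.6, 69.55 and 148 CPM. The 6 in vivo libraries had 44.5, 56.7, 67.7, 94.4, 113 and 206 CPM. The ranges of the 3 types overlap over most of their width, and the lowest value, in nuclear transfer male 3, rests on 1 read.

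No difference of miR-484 was called. Its log2 differences were -0.30 (95% interval -1.24 to 0.63) for nuclear transfer from in vivo, -0.25 (-1.25 to 0.76) for IVF from in vivo and -0.06 (-0.90 to 0.79) for nuclear transfer from IVF, with edgeR adjusted p of 0.756, 0.861 and 0.977. Taking the 3 intervals together, values from -1.25 to 0.79 are covered, so equal levels of miR-484 in the types were not shown. The male minus female difference was 0.08 (-0.69 to 0.85) over types and -0.81 (-1.89 to 0.28; edgeR adjusted p = 0.280) within nuclear transfer, where it was -0.34 without nuclear transfer female 5. In the tests over 3 types and of the interaction, miR-484 had edgeR adjusted p of 0.911 and 0.520.

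Ratios of counts within a library do not depend on how libraries are scaled. Relative to the sum of 5 canonical miRNAs often used as references (miR-103, miR-107, miR-191, miR-423-5p and miR-423-3p), miR-320a averaged -2.62 ± 0.58 log2 units in IVF EVs (SD, n = 10) and -1.60 ± 0.73 in in vivo EVs (n = 6). The difference of -1.02 had an exact two-sided permutation p of 0.0115, and 0.138 after adjustment over the 12 ratio tests. For nuclear transfer (-2.40 ± 0.83, n = 12) the difference from in vivo was -0.80 (exact permutation p = 0.0674, adjusted 0.270). Within the sum, the log2 difference of IVF from in vivo was -1.003 for miR-423-3p and -1.18 for miR-423-5p, but 0.78 for miR-103, 1.38 for miR-107 and 0.01 for miR-191, none of them called by edgeR. With both miR-423 entries left out of the sum, the IVF difference of the miR-320a ratio was -1.98 and passed (exact permutation, adjusted p = 0.0210).

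miR-320a exceeded miR-484 in every library, by 6.62 to 146 times. The median ratio was 30.2 in nuclear transfer, 20.5 in IVF and 47.0 in in vivo EVs. On the log2 scale IVF differed from in vivo by -1.16 (4.20 ± 1.02, n = 10, against 5.35 ± 0.75, n = 6; exact permutation p = 0.0300, adjusted 0.180). The other 3 comparisons of this ratio had permutation p of at least 0.192. The ratio of miR-484 to the reference sum gave an IVF difference of 0.14 (exact permutation p = 0.667) that turned to -0.82 without the miR-423 entries, and no comparison of it was called.

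**Figure D3:**
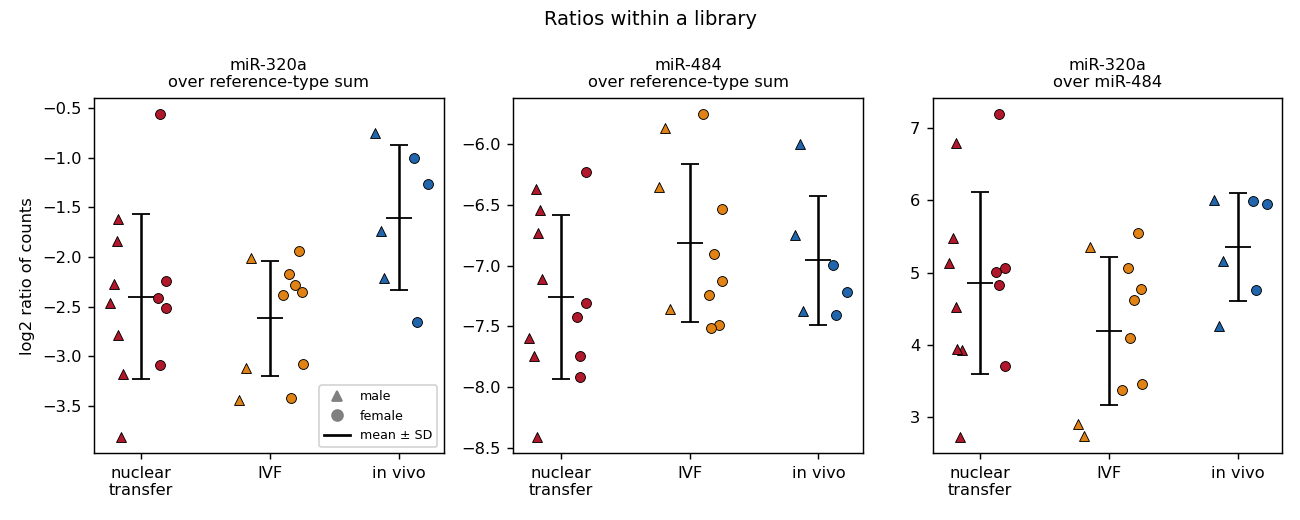
Log2 ratios of counts within each library by conceptus type, with 0.5 added to each count, triangles for male and circles for female conceptuses and bars at the mean ± SD. miR-320a relative to the reference sum averages -2.40 in nuclear transfer, -2.62 in IVF and -1.60 in in vivo EVs, and the types overlap.

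The counts of miR-320a were even in 25 of 28 libraries, and those of miR-484 in 13. Among 184 entries with a mean count of at least 10, the median entry was even in 15 libraries and 12 entries were even in at least 25. The 3 odd counts of miR-320a were in IVF libraries (179, 129 and 453 reads). Counting of most reads at a pair of places would give mostly even counts, and whether it took place was not tested. The level of miR-320a, the counting interval of its pooled reads and its ratio to miR-484 are therefore uncertain. With miR-320a counts halved in every library, the log2 difference of IVF from in vivo was -1.49 (edgeR adjusted p = 0.136). A factor common to all libraries cancels in such a difference, so this fit cannot show the effect of uneven double counting.

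The level of miR-320a moved with the share of counts in miR-2887 and miR-2904. Over 28 libraries, its log2 CPM and that share had Pearson r = -0.683 (permutation p = 7e-05, adjusted 0.00028 over 4 relations) and Spearman rho = -0.667 (permutation p = 0.00018, adjusted 0.00072). Without the 2 libraries farthest from the median share, r was -0.639. Within types r was -0.73 in nuclear transfer, -0.64 in IVF and -0.35 in in vivo libraries, while rho was -0.79 in nuclear transfer, -0.56 in IVF and 0.086 in in vivo libraries. In the 6 in vivo libraries r and rho thus differed in sign. Both quantities are parts of the same library total. With the share as a covariate, the IVF difference of miR-320a was -1.10 (edgeR adjusted p = 0.505). For miR-484 the relation had r = -0.12 (permutation p = 0.544, adjusted 0.921), with -0.55 in nuclear transfer and 0.36 in IVF libraries.

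**Figure D4:**
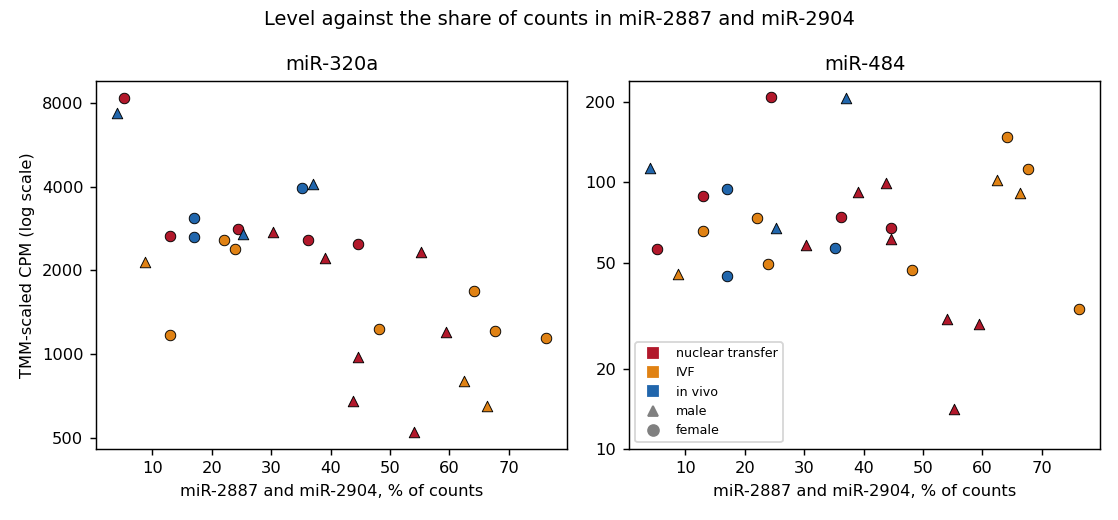
TMM-scaled CPM on a log axis against the percentage of counts in miR-2887 and miR-2904, 1 point per library, coloured by conceptus type. miR-320a is highest in the libraries with shares of 4.11% and 5.17% and declines with the share (r = -0.683), while miR-484 shows no such trend over all libraries (r = -0.12).

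Against log2 total count, miR-320a had r = 0.064 (permutation p = 0.747, adjusted 0.921) and Spearman rho = -0.29 (permutation p = 0.128, adjusted 0.256). The 2 largest libraries, nuclear transfer female 3 and in vivo male 3, had the highest miR-320a. Without them r was -0.56, so the pooled value rests on them. For miR-484 r was -0.02 (permutation p = 0.921, adjusted 0.921) and -0.07 without those 2 libraries.

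Both members varied less between libraries of a group than the fitted trend for their abundance. So did most miRNAs tested: the entry that lay at the trend ranked 148th of 240 from low to high relative to it. The biological coefficient of variation from edgeR was 0.566 for miR-320a and 0.520 for miR-484, against fitted trends of 0.780 and 0.924 at their abundance. Ranked from low to high among the 240 miRNAs, these were 40th and 20th, and 56th and 6th relative to the trend. Of the reference-type miRNAs, miR-423-3p (0.496) and miR-191 (0.516) varied less than miR-320a, and miR-107 (0.650), miR-103 (0.677) and miR-423-5p (0.753) more. Counting error alone gives a coefficient of variation of about 0.303 at the mean count of miR-484 and 0.0465 at that of miR-320a. These ranks are a description and carry no test.

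**Figure D5:**
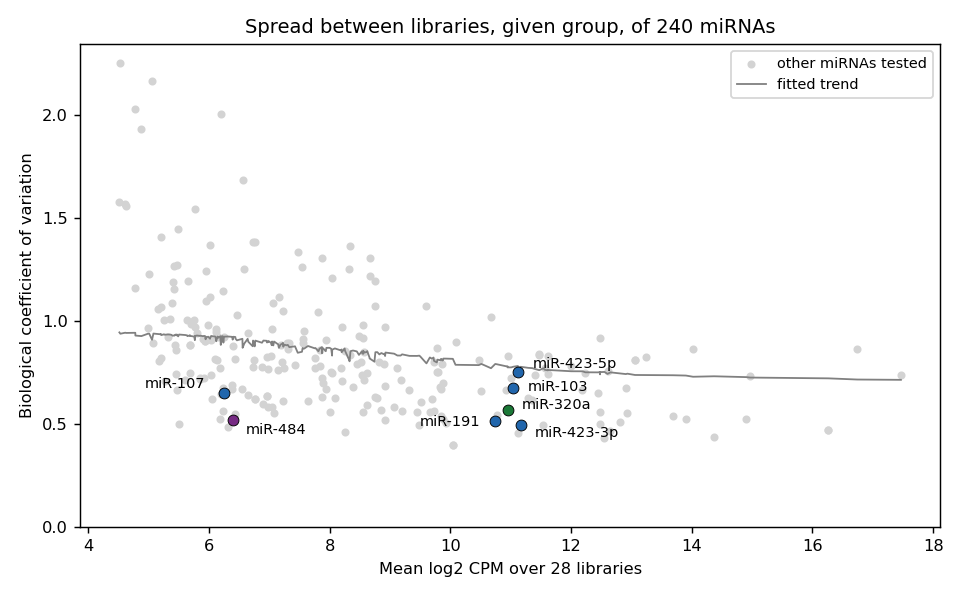
Biological coefficient of variation, given group, against mean log2 CPM for the 240 miRNAs tested, with the fitted trend in grey, miR-320a in green, miR-484 in purple and reference-type miRNAs in blue. miR-320a (0.566) and miR-484 (0.520) lie below the trend, as do most miRNAs tested.

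The levels of the pair were weakly related across libraries. Their Spearman rho over 28 libraries was 0.17, which placed miR-484 84th of 239 miRNAs by likeness to miR-320a, and -0.05 for deviations from group means. The entries most like miR-320a were miR-423-3p (rho 0.763), miR-375 (0.723), miR-1468 (0.692), and let-7b and miR-3596 (0.680 each), the last 2 of which have the same counts. For deviations from group means, miR-375 came first (0.615). Those most like miR-484 were miR-197 (0.604), let-7i (0.540), miR-193a-5p (0.492), miR-223 (0.453) and let-7g (0.452). All points share libraries and their depth. miR-484 rests on 1 to 41 reads per library, and counting error of that size weakens its correlation with any miRNA.

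Once group means were removed, the entries most like miR-484 were miR-142-5p (rho 0.668), miR-150 (0.645), miR-142-3p (0.626), miR-223 (0.626) and miR-197 (0.623). The first 4 are markers of white blood cells. For miR-320a their rho ranged from -0.18 to -0.13. The red cell miRNAs miR-451 and miR-486 had rho of 0.17 and 0.15 with miR-484. The 7 blood cell miRNAs summed to 235 to 8359 CPM in nuclear transfer, 256 to 9030.1 CPM in IVF and 254 to 4537 CPM in in vivo EVs. The 4 white blood cell entries alone summed to 0 in the lowest nuclear transfer library, 33.6 CPM in the lowest IVF library and 16.6 CPM in the lowest in vivo library. The part of blood cell RNA in the miR-484 values was not tested.

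Of the other miRNAs made by routes around the standard one, the mirtrons were sparse. Mirtrons, whose hairpins are introns released by splicing, were present as 3 entries, none of which could be tested. miR-877 had 75 reads in 23 libraries, miR-1224 had 8 reads in 3 libraries and miR-1225-3p had 4 reads in 3 libraries. Per 100000 counts, miR-877 had 1.496 in nuclear transfer, 1.85 in IVF and 2.84 in in vivo libraries, with overlapping exact Poisson intervals of 1.00 to 2.15, 1.2 to 2.74 and 1.76 to 4.34. These intervals cover counting error alone and leave out the spread between conceptuses, so they are no test of the types.

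Of 4 entries that overlap small nucleolar RNAs, miR-1248 and miR-1291 were tested, and edgeR called neither in a type or sex comparison. Of all 240, edgeR called 0% to 1.25% between types, 0% between sexes over types and 8.33% between sexes within nuclear transfer. miR-1248 had a log2 difference of 3.11 (SE 0.98) for IVF from in vivo, opposite in sign to miR-320a, with an edgeR adjusted p of 0.140. Its counts were even in all 28 libraries and summed to 1266 reads, against 305 for miR-484. The other 2, miR-664a with 46 reads and miR-664b with 76, were detected in 17 libraries each.

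miR-451, which skips DICER and is matured by AGO2, had a log2 difference of 1.495 (SE 1.08) for IVF from in vivo (edgeR adjusted p = 0.503), and it is abundant in red blood cells. The mean log2 CPM over the libraries was 8.66 for miR-451, against 6.40 for miR-484. Of the 5 reference-type miRNAs, edgeR called 0 between types, against 0% to 1.25% of all 240. The median log2 difference of IVF from in vivo was 0.01 for the 5 and also 0.01 for all 240. Within nuclear transfer, 1 of the 5 was called between sexes: miR-423-5p was lower in males (-2.14, SE 0.64, edgeR adjusted p = 0.0381), in the comparison that called 8.33% of all 240. No miRNA was called there, so this call was lost, with library totals alone, with the filter of 10 CPM in 3 libraries, with the miR-2887 and miR-2904 share as a covariate or without both largest libraries.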

How the data were processed

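The authors deposited EV values as raw read counts per miRNA, not normalized. Per the labels' protocols, libraries were size selected to 18 to 40 bp. Per the submitters' processing notes, the build was ARS-UCD1.2 and tools included cutadapt, Bowtie, STAR, featureCounts and DESeq2. Their roles, the miRNA annotation and how reads with several matches were handled are not stated. Each library is from a different conceptus, so p-values measure the spread between conceptuses. The donor cells are not named, so how many donors the nuclear transfer conceptuses represent is not known, and the p-values do not cover a spread between donors. The endometrium libraries were not analysed here.

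Tests on the counts used edgeR 4.0.16 (R 4.3.3) with TMM, filterByExpr (minimum count 10, minimum total 15), the two-sided quasi-likelihood F test, 6 group means of type by sex over 28 libraries, Benjamini-Hochberg adjustment over 240 miRNAs and a threshold of 0.05. Type differences average those of males and of females. Log2 CPM used a prior count of 2. Ratios added 0.5 to each count and were compared by permutation over libraries, exact where a group had under 10 and with 100000 resamples otherwise. The fit was first tested on simulated data. Alternatives were DESeq2 1.42.0, limma 3.58.1 voom, and the scalings, filters and exclusions given below.

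The members and lists were chosen with earlier results of these data known. Genes named are the members, the 5 miRNAs most like each by Spearman rho, and miR-2887 and miR-2904 as a measure of the library. Also named are the lists of noncanonical, reference-type, blood cell, early embryo, muscle and liver miRNAs. Muscle (3 tested), liver (1), blood cell (6) and early embryo (5) lists had 0 called by edgeR in the type and sex comparisons. Of all 240, edgeR called 0% to 1.25% between types, 0% between sexes over types and 8.33% between sexes within nuclear transfer. At such shares, 0 called in lists this short says little. Their median log2 differences ranged from -1.79 (early embryo, nuclear transfer from IVF) to 3.07 (early embryo, males from females within nuclear transfer). Tests of miR-320b were planned but not run, because it had 1 read, and 12 ratio tests and 4 relations remained. Seeds were not compared, as no sequences were used here.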

Additional observations from a re-analysis of the deposited data

Results flagged for a closer look

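The miR-320a level of nuclear transfer female 3 stood apart from the other 4 female nuclear transfer libraries. Its log2 CPM was 13.03 and the next highest was 11.46, a gap of 0.899 of the group's whole range, above the critical value of 0.71 of Dixon's test for 5 libraries. It is the largest library (603579 counts) and has a low share of counts in miR-2887 and miR-2904 (5.17%). Chance flags about 1 in 20 such checks, and 25 groups were checked, so a flag among them can be expected by chance. Fits of miR-320a without this library are given beside the type differences averaged over the sexes and the sex difference within nuclear transfer. What sets it apart was not tested.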

How the results depend on the processing

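The miR-320a differences refitted were those between types averaged over the sexes, between sexes averaged over types, and between sexes within nuclear transfer. Each kept its direction under all alternatives run, and miR-484 was called under none of them. Type differences within a sex, and sex differences within IVF or in vivo, were not refitted. Leaving out both largest libraries and halving miR-320a were added after seeing the data. Halving was applied to every library, so it could not turn a direction. The settings not named for a comparison left its count within 1.5 times, and the cause of each shift was not tested. Some settings also changed the number of miRNAs tested from the 240 of the main fit, so counts called are not shares of the same total. That number was 652 with DESeq2, 655 with no filter and 398 with 10 CPM in 3 libraries. For DESeq2 the 652 are the miRNAs given a p-value. Its default adjustment can leave out those with low mean counts, and how many it covered was not recorded. The number tested was 229 with miR-2887 and miR-2904 left out, 254 without both largest libraries and 180 to 223 with only the groups compared. Of 240 miRNAs, 1 was called between nuclear transfer and in vivo, against 0 with DESeq2, limma voom, fits of only the groups compared or both largest libraries left out, 3 with additive terms, and 6 with library totals alone, no filter or a replicate block (0 to 5 leaving out each library). Between IVF and in vivo 0 were called, against 10 with DESeq2, 22 with limma voom and 6 with no filter (0 to 21 leaving out each library, with 21 without IVF male 3). Between nuclear transfer and IVF 3 were called, against 5 with no filter and 0 with DESeq2, limma voom, miR-2887 and miR-2904 left out or as a covariate, only the groups compared, or both largest libraries left out (0 to 4 leaving out each library). Between sexes within nuclear transfer 20 were called, against 56 with DESeq2, 46 with limma voom, 40 with only the groups compared, 3 with DESeq2-style size factors or miR-2887 and miR-2904 left out, and 0 with library totals, 10 CPM in 3 libraries, the covariate or both largest libraries left out (0 to 36 leaving out each library). Over 3 types 0 were called, against 8 with limma voom, 1 with library totals, 15 with no filter, 3 with additive terms and 4 with a replicate block (0 to 14 leaving out each library).

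For miR-320a, IVF against in vivo passed with DESeq2 (-1.35) and limma voom (-1.65) and ranged from -1.89 to -1.25 leaving out each library, with 1 of 28 fits past the threshold. Over its 13 other settings the adjusted p ranged from 0.0115 to 0.505. Males against females within nuclear transfer passed with limma voom (-1.35) and with the replicate block (-1.42, edgeR adjusted p = 0.0489) and ranged from -1.54 to -0.76, past the threshold in 2 of 28 fits (without IVF male 3 and without nuclear transfer male 7). Its F over 3 types was 8.61 with limma voom and 3.69 to 9.14 leaving out each library. For miR-484, nuclear transfer against IVF turned to 0.18 with library totals, 0.046 with miR-2887 and miR-2904 left out, 0.044 with the covariate and 0.015 with both largest libraries left out (-0.29 to 0.024 leaving out each library). Its male against female difference turned to -0.0087 with library totals and -0.13 with additive terms (-0.042 to 0.24). Without the miR-423 entries, the IVF against in vivo ratio to the reference sum was -1.98 for miR-320a and -0.82 for miR-484, and the male against female ratio of miR-484 was -0.011. Library totals alone moved the median of all miRNAs to -0.35 for IVF against in vivo, and DESeq2-style size factors moved it to 0.36 for males against females within nuclear transfer.

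Replicate numbers did not pair the libraries: same-numbered libraries of different groups had a mean correlation of 0.015 (53 pairs), and 4 of 28 correlated best with their own number. miR-484 rests on 1 to 41 reads per library, and miR-320b could not be compared with 1 read in all.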
